A study of Mus musculus with 2 samples.

Results

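Rab genes encode the largest family of small GTPases that direct membrane traffic. The genes described here are the protein-coding genes of the mm10 RefSeq annotation whose symbol is Rab followed by a number and at most 1 small letter. Of 21887 protein-coding genes on chromosomes 1 to 19, X and Y, 59 met this rule. They were examined in H3K27ac CUT&Tag profiles of colonic macrophages, in which an antibody against acetylated lysine 27 of histone H3, a mark of active promoters and enhancers, directs a transposase to marked chromatin. Tle4cKO mice carried a floxed Tle4 gene (Tle4f/f) and Lyz2-Cre, and WT mice carried Lyz2-Cre alone. Both were untreated C57BL/6 males aged 11.1 weeks. Tle4 encodes a Groucho-family corepressor, and the Lyz2 promoter drives Cre in macrophages, monocytes and neutrophils. Macrophages were sorted as CD64-positive cells low in Ly6C and lacking Siglec-F, and those of 4 mice were pooled for each genotype, so there was 1 library per genotype, no difference had a replicate check and no test between genotypes was possible.

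A Rab protein cycles between a GTP-bound form on a membrane, where it recruits effectors that tether, move or fuse vesicles, and a GDP-bound form that is held in the cytosol by GDI. Exchange factors switch it on and GTPase-activating proteins switch it off. Each Rab marks its own compartments, and in macrophages Rab proteins act in phagosome maturation, in the delivery of receptors to the surface and in the release of cytokines.

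The deposited data were 1 list of summits per library, each summit a single base with a score. A summit counts as a gene-end summit where it lies at most 1 kb from the first or the last base of a gene. The promoters of 5 Rab genes that had a gene-end summit in both libraries and of Rab11a, whose WT-only score ranked second among the WT-only genes, are shown because the summits of the main comparison lie at them. They come from RefSeq on GRCm38.p6, the assembly behind mm10, and each reads 5′ to 3′ on the strand of the gene, from 150 bases before the listed transcription start to the last base before the gene. Capitals mark matches, on either strand, to GGGCGG (the GC box), CCAAT (the CCAAT box), TATAAA (the TATA box), CACGTG (an E-box), TGACGTCA (the cyclic AMP response element) or CCGGAA (the ETS core), and overlapping matches were all kept. The windows are chr5:41708194-41708329 on the minus strand for Rab28, chr8:72161050-72161199 on the plus strand for Rab8a, chr7:27178884-27179033 on the minus strand for Rab4b, chr17:25919715-25919864 on the minus strand for Rab40c, chr1:131867127-131867209 on the plus strand for Rab29, and chr9:64737757-64737906 on the minus strand for Rab11a. Windows that overlap another annotated gene were not printed.
Rab28: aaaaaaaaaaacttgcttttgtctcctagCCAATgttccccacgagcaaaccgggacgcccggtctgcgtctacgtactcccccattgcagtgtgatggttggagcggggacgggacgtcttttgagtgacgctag
Rab8a: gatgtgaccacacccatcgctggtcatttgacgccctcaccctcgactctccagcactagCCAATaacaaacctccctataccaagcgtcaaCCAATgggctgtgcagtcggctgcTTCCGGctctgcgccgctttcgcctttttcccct
Rab4b: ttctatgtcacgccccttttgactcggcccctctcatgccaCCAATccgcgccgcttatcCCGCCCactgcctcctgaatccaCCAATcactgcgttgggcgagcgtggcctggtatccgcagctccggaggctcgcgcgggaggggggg
Rab40c: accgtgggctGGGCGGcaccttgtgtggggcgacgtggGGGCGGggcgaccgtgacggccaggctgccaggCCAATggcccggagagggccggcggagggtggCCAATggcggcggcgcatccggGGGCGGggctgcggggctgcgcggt
Rab29: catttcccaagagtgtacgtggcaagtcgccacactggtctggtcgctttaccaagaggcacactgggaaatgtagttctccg
Rab11a: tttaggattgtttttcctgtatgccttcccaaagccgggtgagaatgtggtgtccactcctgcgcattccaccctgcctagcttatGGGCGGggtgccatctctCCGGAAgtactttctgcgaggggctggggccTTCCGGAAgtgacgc

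The printed stretches of Rab8a, Rab4b and Rab40c each held 2 CCAAT boxes, that of Rab28 held 1 and those of Rab29 and Rab11a held 0. Rab40c held 3 GC boxes and 19 CG dinucleotides, and Rab29 held no match to any of the motifs. The WT summit of Rab28, at position 41708260, lies inside its printed stretch. The other summits of these genes lie downstream of the start or further upstream.

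The Tle4cKO list held 2350 summits and the WT list 10474. Read depth was not given in the sources used here, and a score, the authors' −log10 of a p- or q-value, grows with depth, so scores were ranked within a list and never subtracted between lists. A gene without a summit in a library was not called there, which does not show that its acetylation was absent. Neither library had a Tle4 or Lyz2 summit within 10 kb, so the lists give no check of the genotype labels. Of 12 macrophage marker genes, 0 had a Tle4cKO summit and 7 a WT summit within 10 kb, among them Fcgr1, which encodes the CD64 of the sort, and Csf1r. The same counts were 2 and 4 of 5 dendritic cell markers, 1 and 4 of 4 endothelial, 1 and 3 of 5 B and plasma cell, 0 and 2 of 6 T cell and 0 and 1 of 8 epithelial markers, and 0 in both libraries for 5 neutrophil, 6 fibroblast and muscle and 3 eosinophil markers. Over all protein-coding genes, 11.6% had a Tle4cKO summit and 39.2% a WT summit within 10 kb. The WT share of macrophage markers (58.3%) was below those of dendritic cell (80.0%), B and plasma cell (60.0%) and endothelial markers. It was above those of the other marker lists. The lists are too small for a difference from all genes, or between libraries, to be judged. Signal from cells other than macrophages in the Rab results was not tested.

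The comparison asked which Rab genes carried a called H3K27ac summit and whether it was called with and without Tle4. Rab gene ends were called more widely than those of protein-coding genes at large, in both libraries. In Tle4cKO, 9 of 59 Rab genes (15.3%) had a gene-end summit, against 6.19% of all protein-coding genes. In WT, 24 of 59 (40.7%) had one, against 22.6% of all. The 9 Tle4cKO genes were Rab28, Rab8a, Rab4b, Rab29, Rab6a, Rab5b, Rab18, Rab40c and Rab11b, and each also had a WT gene-end summit, as did 90.4% of all 1355 protein-coding genes with a Tle4cKO gene-end summit. Genes with both were 15.3% of the Rab genes and 5.6% of all protein-coding genes.

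The other 15 Rab genes with a WT gene-end summit had none in Tle4cKO (17.0% of all protein-coding genes were of this class), and no Rab gene had a Tle4cKO gene-end summit alone (0.594% of all). Of the Rab genes with a WT gene-end summit, 37.5% were therefore also called in Tle4cKO, against 24.7% of all such genes. When scores under 5 were left out of both lists, the shares were close, with 12.5% of such Rab genes (2 of 16) against 13.8% of all. Because scores of the kind taken here grow with depth, this minimum need not be an equal cut in both lists. With the WT list cut to its 2350 highest scores, 10 Rab genes (16.9%) had a WT gene-end summit, against 7.51% of all genes. Of these 10, 5 (50%) were also called in Tle4cKO, against 43.9% of all such genes. From the Tle4cKO side, 5 of the 9 called Rab genes then had a WT gene-end summit, against 721 of 1355 over all genes. At this list length the Tle4cKO calls therefore no longer all lay within the WT calls. Depth and the genotype cannot be told apart in these counts.

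**Figure D1:**
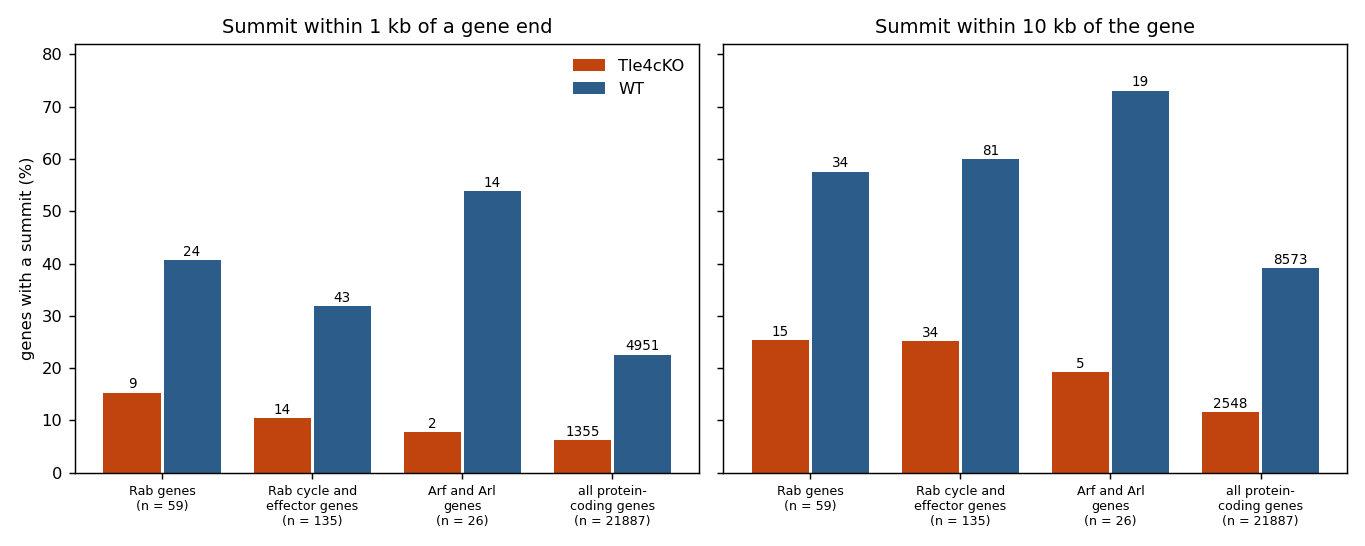
Share of genes with a called H3K27ac summit within 1 kb of a gene end (left) and within 10 kb of the gene (right), in percent, for Rab genes, 135 Rab cycle and effector genes, Arf and Arl genes and all protein-coding genes. Bars are Tle4cKO (left of each pair) and WT, with the number of genes above each bar. In both windows and libraries the Rab bar is higher than that of all protein-coding genes.

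Early endosome and phagosome genes had the highest share of gene-end calls in WT among 6 groups of Rab genes by compartment. Gene-end summits lay at 1 in Tle4cKO and 5 in WT of 8 early endosome and phagosome genes. They lay at 2 and 7 of 14 ER and Golgi genes, at 2 and 4 of 8 recycling genes and at 3 and 3 of 6 genes of the cilium, lipid droplet and other sites. Of 8 late endosome, lysosome and autophagy genes, 0 were called in Tle4cKO and 2 (25.0%) in WT, and of 15 exocytosis and granule genes 1 (6.67%) and 3 (20%), which is near the 6.19% and 22.6% of all protein-coding genes. The groups are small and no difference between them was tested.

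**Figure D2:**
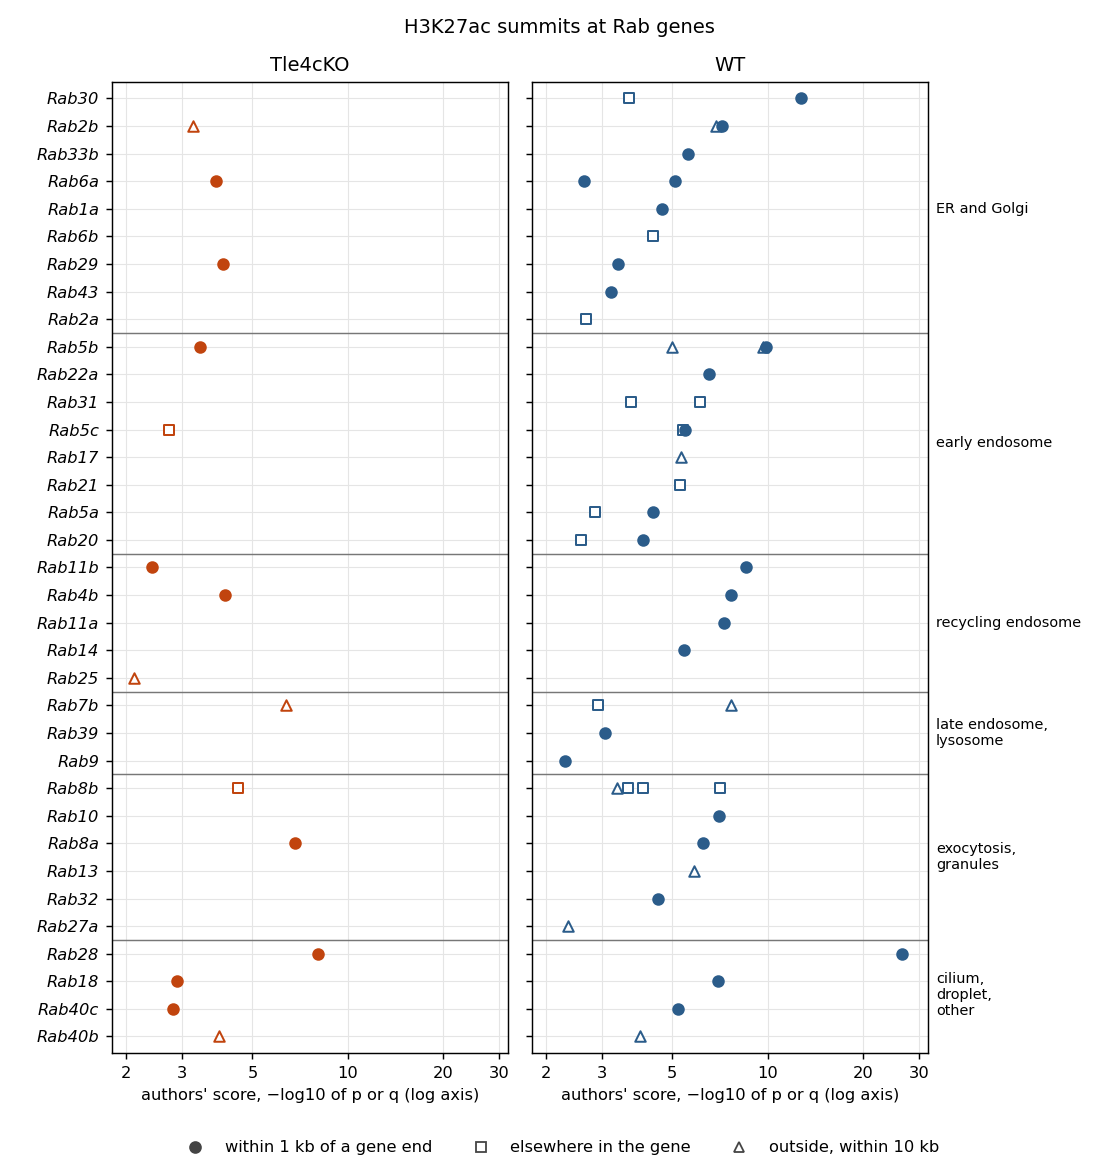
Scores of every summit in or within 10 kb of the 35 Rab genes that had any, in Tle4cKO (left panel) and WT (right panel). The log axis shows the deposited score, taken for a −log10 of a p- or q-value. Each symbol is 1 summit, filled for a gene end and open for other places, and rows are grouped by the compartment in which each Rab is known to act. All 9 filled Tle4cKO points have a filled WT point in the same row.

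Among the Rab genes of the ER and Golgi, Rab30, a Golgi Rab, had the highest WT score. Its WT gene-end summit scored 12.7 at position 92741328 of chromosome 7 (286th of the WT list), and the closest Tle4cKO summit lay 71648 bp from it. A second WT summit, inside the gene, scored 3.65. Rab6a, which acts in retrograde transport to and within the Golgi, had a Tle4cKO summit of 3.84, against WT summits of 2.63 and 5.09. The Tle4cKO summit lay between the WT ones, 250 bp from the weaker and 602 bp from the stronger, and all 3 also lie at the end of the neighbouring gene Mrpl48, so they cannot be assigned to Rab6a alone. Rab29, which recruits the kinase LRRK2 to Golgi and lysosomal membranes, scored 4.04 in Tle4cKO, the 1182nd score of that list, and 3.37 in WT, where it ranked 7812th. It therefore stood near the middle of the Tle4cKO list and in the lower part of the WT list.

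Rab2b, Rab33b, Rab1a and Rab43 had a WT gene-end summit alone. Rab2b scored 7.17 at an end it shares with Tox4. Rab33b, which links the Golgi to autophagosome formation, scored 5.58. Rab1a, the central Rab of ER-to-Golgi transport, scored 4.63 and Rab43 3.20. Its close relative Rab1b was called in neither library within 10 kb, the nearest summits being 136919 bp (Tle4cKO) and 10903 bp (WT) from the gene. Rab19, Rab33a, Rab34 and Rab36 were not called in this window either. Rab2a and Rab6b had only a WT summit inside the gene (2.67 and 4.34).

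Within 10 kb, 2 of the 8 early endosome and phagosome Rab genes were called in Tle4cKO and all 8 in WT, against 11.6% and 39.2% of all protein-coding genes. The Rab5 genes, whose products drive the fusion of early endosomes, were each called in WT but differed in Tle4cKO. Rab5b scored 3.41 in Tle4cKO and 9.87 in WT, with summits 22 bp apart at an end shared with Pmel. Further WT summits of 9.66 and 4.97 lay outside Rab5b, at the ends of Suox and Cdk2. Rab5c had a gene-end summit in WT alone (5.47), and a summit inside the gene that was called in both (2.74 in Tle4cKO and 5.40 in WT, 77 bp apart). Rab5a had WT summits alone, of 4.34 close to its start and 2.85 inside the gene.

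Rab22a, a Rab of early and recycling endosomes, had a WT gene-end summit of 6.54, and the closest Tle4cKO summit lay 416498 bp from it. Rab20, which acts in phagosome maturation, had WT summits of 4.03 and 2.56, the first 859 bp from its 3′ end. It is the only Rab gene with a listed start whose WT gene-end summit lay at the 3′ end. Rab21 and Rab31 had WT summits inside the gene alone. The Rab21 summit (5.28) lay at -268 bp from its listed start (upstream negative), and that start lies inside the outer bounds of the gene. The Rab31 summits scored 6.11 and 3.69, the first of them 48438 bp downstream of the start.

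In the recycling group, Rab4b and Rab11b were called in both libraries. Rab4b, a Rab of fast recycling from early endosomes, scored 4.11 in Tle4cKO and 7.67 in WT, 191 bp apart, and the WT summit also lies at an end of the neighbouring gene Mia. Rab11b, of the slower recycling endosome, scored 2.41 in Tle4cKO, among the lowest scores of that list (2132nd), and 8.51 in WT (1000th), at summits 27 bp apart. Rab11a, its close relative, had a WT summit of 7.28 close to its start, 396765 bp from the closest Tle4cKO summit. Rab14, which acts between endosomes, Golgi and phagosomes, also had a WT gene-end summit alone (5.44). Rab4a, Rab15 and Rab35 were called in neither library within 10 kb.

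Late endosome and lysosome Rab genes were the group with the lowest median WT gene-end score (2.69), which rests on only 2 genes. Rab7, the Rab that drives fusion of late endosomes and phagosomes with lysosomes, was called in neither library within 10 kb. The nearest Tle4cKO summit lay 84734 bp and the nearest WT summit 29731 bp from it. Rab9, a Rab of transport from late endosomes to the Golgi, and Rab39 had WT gene-end summits alone, with scores of 2.30 and 3.07. Rab7b, known from traffic between late endosomes and the Golgi, had no gene-end summit. A summit 8639 bp outside the gene scored 6.38 in Tle4cKO (440th), and its WT partner, 33 bp away, scored 7.63 (1392nd). A further WT summit inside Rab7b scored 2.92. The pair lies at no end and in no body of another protein-coding gene, and it has the highest Tle4cKO score among the Rab summits that are not at a gene end. Rab12, Rab24, Rab39b and Rab9b had no summit within 10 kb.

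Of the exocytosis and granule Rab genes, Rab8a was called in both libraries. Rab8a, which acts in exocytosis and in traffic to the cilium, scored 6.79 in Tle4cKO (379th) and 6.23 in WT (2494th). The summits lay 11 bp apart, the closest pair of the 9. Rab8b had a summit inside the gene in both libraries (4.49 in Tle4cKO and 7.09 in WT, 38 bp apart), 2 further WT summits inside the gene and 1 outside at the end of Aph1c.

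Rab10, which carries Toll-like receptor 4 to the macrophage surface, had a WT summit of 6.99 at 17 bp from its start, and Rab32, of lysosome-related organelles, a WT summit of 4.51. Neither was called in Tle4cKO. The Rab3 genes (Rab3a, Rab3b, Rab3c and Rab3d), known from regulated secretion in neurons and glands, were called in neither library within 10 kb. The same held for Rab26, Rab27b, Rab37, Rab38 and Rab44.

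The remaining group held Rab28, whose score was the highest of all Rab genes in each list. Rab28, a Rab known from photoreceptors and cilia, scored 8.06 in Tle4cKO (248th of 2350) and 26.4 in WT (62nd of 10474). Its summits lay at positions 41708375 and 41708260, 115 bp apart, both upstream of the start. Rab18, which acts on lipid droplets and the ER, scored 2.88 in Tle4cKO and 6.97 in WT, 194 bp apart. Rab40c, which joins a ubiquitin ligase, scored 2.82 in Tle4cKO and 5.20 in WT, 228 bp apart and both upstream of the start. Rab40b had no gene-end summit, and its pair (3.93 in Tle4cKO and 3.95 in WT) lay 1890 and 1839 bp outside the gene at the end of Wdr45b. Rab23 and Rab42 had none within 10 kb.

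Rab gene-end summits lay at the transcription start rather than at the 3′ end. A start was listed for 48 of the 59 Rab genes. Among genes with both a listed start and a gene-end summit, the highest summit lay within 1 kb of a start in 8 of 8 Rab genes in Tle4cKO and in 21 of 22 in WT. Over all protein-coding genes the shares were 95.5% in Tle4cKO and 93.1% in WT, so Rab genes were close to the rest. Of these Rab summits, 6 of 8 in Tle4cKO and 16 of 21 in WT lay downstream of the start, against 61.2% over all genes in each library. Their median position was 204.5 bp downstream in Tle4cKO and 108 bp in WT, and that of all genes 107 and 106 bp.

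**Figure D3:**
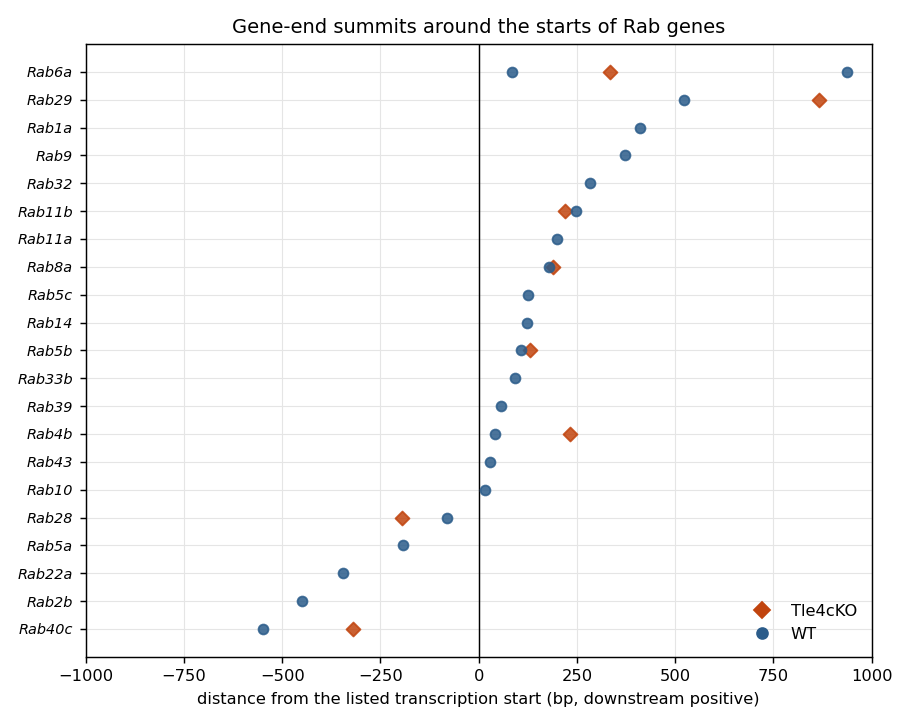
Position of gene-end summits relative to the listed transcription start of 21 Rab genes, in bp with downstream positive; diamonds are Tle4cKO summits and circles WT summits. Genes are ordered by the position of the WT summit with the highest score; most points lie to the right of 0, and Rab28, Rab5a, Rab22a, Rab2b and Rab40c lie to the left.

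The Tle4cKO and WT summits at a Rab gene end lay close together. All 9 Tle4cKO gene-end summits had a WT summit within 500 bp, at a median of 191 bp and at most 343 bp (Rab29), and so did 87.3% of all 1127 Tle4cKO gene-end summits. From the WT side, 9 of 25 Rab gene-end summits (36%) had a Tle4cKO summit within 500 bp, against 22.6% of all 4358 WT gene-end summits. No Rab gene shared a summit with another Rab gene. Other genes did share them: 2 of the 9 Tle4cKO and 5 of the 25 WT gene-end summits lay at the end of a further protein-coding gene. The same share over the gene-end summits of all genes was not counted.

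Rab promoters were richer in CG dinucleotides than promoters at large. For a gene with a gene-end summit, the listed start nearest to its highest such summit was used. Genes with no gene-end summit took the first listed start, so called and uncalled genes had promoters chosen by different rules. In the 300-base window from 250 before to 50 after the start, the median number of CG was 19.5 for the 8 Rab genes called in both libraries and 26 for the 14 called in WT alone. It was 18.5 for the 26 with no gene-end summit and 13 over 17492 protein-coding genes, of which those with a WT gene-end summit had a median of 22. Genes with more CG were more often called in WT. Of genes with at least 13 CG, a WT gene-end summit was found at 18 of 36 Rab genes (50%), against 36.8% of all. Below 13 CG it was found at 4 of 12 Rab genes (33.3%), against 9.21% of all. Called in both libraries were 6 of 36 Rab genes (16.7%) at 13 CG or more and 2 of 12 (16.7%) below. The second share rests on 2 genes, too few to tell whether it differs from the first. Over all genes the shares called in both were 9.36% and 1.99%.

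The CCAAT box was present in 7 of the 8 promoters of Rab genes called in both, in 8 of 14 called in WT alone and in 9 of 26 with no gene-end summit, against 39.0% of all promoters. The starts were those chosen above, by different rules for genes with and without a gene-end summit. GC boxes were present in 4 of 8, 12 of 14 and 18 of 26 of them, against 46.5% of all. The ETS core was present in 3, 4 and 6 of them (19.2% of all) and the TATA box in 0, 0 and 4 (13.3% of all). The E-box CACGTG, also the core of the element found at many lysosomal genes, was present in 0, 2 and 3 (7.93% of all), and the cyclic AMP response element in 0, 1 and 1 (2.37% of all). Over the 4106 promoters of all protein-coding genes with a WT gene-end summit, the shares were 39.8% for the CCAAT box, 66.1% for the GC box, 34.9% for the ETS core, 5.77% for the TATA box, 10.7% for the E-box and 4.24% for the cyclic AMP response element.

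In the wider window of 10 kb around the gene, 15 Rab genes (25.4%) had a Tle4cKO summit, against 11.6% of all, and 34 (57.6%) a WT summit, against 39.2% of all. Both libraries had one at 14 (23.7%, against 10.8%), WT alone at 20 (33.9%, against 28.4%) and Tle4cKO alone at 1 (1.69%, against 0.832%). Of Rab genes with a WT summit in this window, 41.2% also had one in Tle4cKO, against 27.6% of all such genes. Of those with a Tle4cKO summit, 93.3% also had one in WT, against 92.9% of all such genes. Rab genes are longer than most, with a median of 23213 bp against 17169 bp, which widens this window for them.

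Several summits of the wider window belong at the ends of neighbours. The Rab gene called in Tle4cKO alone was Rab25, a Rab of epithelial cells, whose summit (2.12, 2257th) lies 4908 bp upstream of it at the ends of Lamtor2 and Ubqln4. Of the summits outside a Rab gene and beyond its ends, 3 of 4 in Tle4cKO and 7 of 9 in WT lay at an end of another protein-coding gene. Among these, Rab2b had summits at Chd8 in both libraries (3.24 in Tle4cKO and 6.87 in WT), Rab13 a WT summit at Jtb (5.87) and Rab27a a WT summit at Pigb and Pigbos1 (2.34). Rab17, known from polarised epithelia, had a WT summit of 5.32 that lay 5589 bp outside it and at no other gene. How often summits outside other genes lie at the end of a neighbour was not counted.

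For the window of 1 kb, the summit furthest inside was that of Rab6a in WT, at 947 bp, and the nearest outside that of Rab21 in WT, at 1560 bp. For the window of 10 kb, the furthest inside was that of Rab8b in WT, at 8868 bp. Among Rab genes with no summit in this window, the nearest were those of Rab34 and Rab1b in WT, at 10666 and 10903 bp. For Rab genes called within the window, further summits beyond it were not all examined. For the 24 Rab genes with none within 10 kb the nearest summit lay at a median of 194105.5 bp in Tle4cKO and 49001 bp in WT.

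Rab genes with a high WT score were those most often called in Tle4cKO. Of the 4 with a WT gene-end score of 8 or more, 3 (75%) had a Tle4cKO gene-end summit, Rab30 being the exception, and over all genes 55.8% did. At WT scores from 6 to 8 it was 3 of 7 (42.9%, against 28.6% of all), from 4 to 6 it was 2 of 9 (22.2%, against 17.9%) and under 4 it was 1 of 4 (25%, against 9.53%). The Rab share was above that of all genes in each range, by counts too small to be read singly. The exception under 4 was Rab29.

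**Figure D4:**
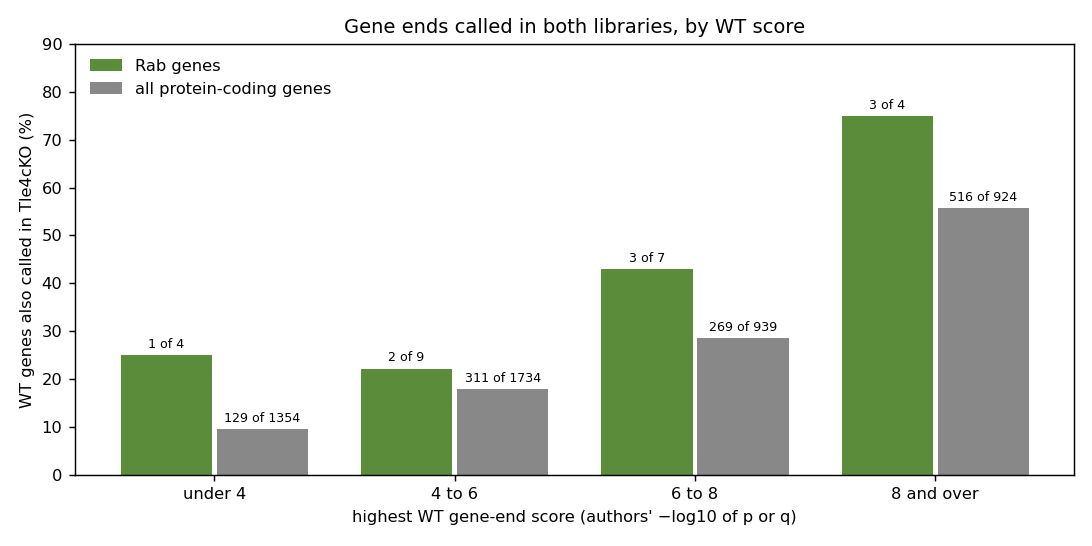
Share of genes with a WT gene-end summit that also had a Tle4cKO gene-end summit, in percent, by the highest WT gene-end score, for Rab genes (left bars) and all protein-coding genes (right bars); counts stand above the bars. The share rises with the WT score in all genes, and 3 of 4 Rab genes scoring 8 or more were called in both.

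The genes that act on Rab proteins were examined as 4 further lists. Of 135 genes, 14 (10.4%) had a gene-end summit in Tle4cKO and 43 (31.9%) in WT, 13 of them in both. These shares lie between those of the Rab genes and of all protein-coding genes.

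In the list for the GDI cycle and prenylation, Rabggtb, a subunit of the enzyme that prenylates Rab proteins, was called in both (4.06 in Tle4cKO and 4.76 in WT). Chm, which presents Rab proteins to that enzyme, had a Tle4cKO gene-end summit alone (3.76), the only such gene of the 135. That is 0.741% of them, near the 0.594% of all protein-coding genes. Rabif (6.55), Gdi2 (5.40) and Rabac1 (3.58) had WT summits alone.

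Of 39 exchange factor genes, 5 (12.8%) had a gene-end summit in Tle4cKO and 15 (38.5%) in WT, against 6.19% and 22.6% of all protein-coding genes. Hps1, a subunit of the exchange factor for RAB32 and RAB38 in human cells, scored 6.12 in Tle4cKO and 11.0 in WT. Dennd1c, of the family that acts on RAB35, scored 6.67 and 7.54, and Ric1, which acts on RAB6, 3.04 and 6.15. Mon1b, of the exchange factor for RAB7, had a WT summit alone (7.77), as did Dennd4a and Dennd1a (7.48 each).

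Of 40 genes in the list for GTPase-activating proteins, 4 (10.0%) had a gene-end summit in Tle4cKO and 12 (30.0%) in WT. Whether each product has this activity was not examined. Rabgap1 (4.77 in Tle4cKO and 5.92 in WT), Tbc1d20 (4.27 and 4.42), which acts on RAB1, and Tbc1d13 (2.29 and 3.35) were called in both, and Tbc1d23 (6.92), Tbc1d31 (6.00) and Tbc1d17 (5.66) in WT alone. Of 48 effector and kinase genes, 3 (6.25%) were called in Tle4cKO and 12 (25.0%) in WT, which is near the share of all protein-coding genes. Rab11fip2, an effector of RAB11, scored 7.84 in Tle4cKO and 12.5 in WT, Micall1 1.98 and 3.31 and Osbpl1a 4.91 and 3.25. Rab11fip1 (6.28), Vps41 (5.22) and Plekhm1 (4.92), the last of these an effector of RAB7, had WT summits alone.

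The Arf and Arl genes, other small GTPases of membrane traffic, were set beside the Rab genes as a description. Of 26 Arf and Arl genes, 2 (7.69%) had a Tle4cKO gene-end summit and 14 (53.8%) a WT one, against 6.19% and 22.6% of all protein-coding genes. Of 8 Rab-like genes outside the naming rule, 1 (12.5%) and 2 (25.0%) did, with Rabl3 called in both (4.15 in Tle4cKO and 7.35 in WT). No difference between these families was tested.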

How the data were processed

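H3K27ac CUT&Tag was measured in 1 Tle4cKO and 1 WT library of sorted colonic macrophages, each pooled from 4 mice. The submitters' processing notes list cutadapt 1.14, Bowtie2 2.2.5 and mm10. The authors deposited 1 summit list per library. The deposited score was taken for a −log10 p-value or q-value of each peak, as the lowest values lie just above 1.3. How peaks were called, against which control and at what depth was not given in the sources used here, so no interval on a signal is given.

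Positions were counted from 1, and mitochondrial summits (2 in Tle4cKO and 4 in WT) were left out. Genes came from RefSeq on GRCm38.p6, which gives outer ends but no exons; starts came from a RefSeq promoter table with 17492 of the protein-coding genes and 48 Rab genes. A summit counted within 1 kb of an outer end, within 10 kb of the gene, and as shared within 500 bp. A role list named 60 Rab genes, of which Rab41 was not matched. Members and lists were chosen with earlier results of these data known. All Rab genes with a summit are named, and up to 3 genes per further list and class by score. Promoters over another gene were not printed. No set test was run. Window and sharing calls were tested on simulated summits at 200 genes (100% correct). Python 3.11.15, pandas 2.3.3 and numpy 2.4.6 were used.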

Additional observations from a re-analysis of the deposited data

How the results depend on the processing

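Of 52 counts of Rab genes or summits recomputed under other settings, 32 stayed within 1.5 times the main count and 20 did not. The cause was not tested beyond what each setting removes. A score minimum of 5 left Tle4cKO gene-end summits at 2 genes, both libraries at 2, shared summits at 2, and within 10 kb 3 in Tle4cKO, 22 in WT and 3 in both. A minimum of 10 left 0 genes in Tle4cKO, 2 in WT and 0 in both, in either window. At gene ends the WT share was then 3.39% of Rab genes, against 2.04% of all genes. In Tle4cKO only 0.123% of all genes were still called. When only as many top WT scores as Tle4cKO summits were kept, WT gene ends were 10, both 5 and shared summits 5, and within 10 kb WT was 12 and both 8. Tle4cKO counts stayed at 9 gene ends and 15 within 10 kb, so some Rab genes were then called in Tle4cKO alone. A window of 50 kb gave 22 genes with both, and summits inside the gene only gave 8 in Tle4cKO and 8 in both. At a minimum of 5, Rab genes were called at gene ends in 3.39% (Tle4cKO) and 27.1% (WT), against 1.97% and 12.1% of all genes. Of WT-called Rab genes, 12.5% were then also called in Tle4cKO, against 13.8% of all, so the higher Rab share seen without a minimum did not hold there. No paired analysis was possible because each genotype has 1 library. Leaving out a replicate was likewise not possible. Depth limits every absence of a summit.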

Other observations

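Rab genes that share a number form 14 sets with 31 genes, and 11 of these sets held more than one gene-end class (called in both, in WT alone or in neither). Over all 59 Rab genes these classes held 9, 15 and 35 genes, and how often unrelated Rab genes differ in class was not counted. The other 3 sets (Rab3a to Rab3d, Rab7 and Rab7b, Rab27a and Rab27b) had no gene-end summit at any member. Within the Rab5 set, Rab5a and Rab5c were both called in WT alone and Rab5b in both libraries. In pairs that differ by a final letter, Rab8a, Rab4b and Rab11b had gene-end summits in both libraries, whereas Rab8b had a pair inside the gene, Rab4a had no summit within 10 kb and Rab11a had a WT gene-end summit alone. Rab6a was called at its end in both libraries and Rab6b in WT alone, inside the gene. Rab27a and Rab27b had no gene-end summit, and the single WT summit near Rab27a lies at neighbours. Rab40c was called at its end in both libraries, and Rab40b only through a pair at the end of Wdr45b. These relatives were set side by side after their values had been seen, and no difference between them was tested.

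Rab43 and Rab7 lie on the same stretch of chromosome 6, as Rab7b and Rab29 do on chromosome 1. In the first pair Rab43 had a WT gene-end summit (3.20) and Rab7 none within 10 kb in either library. In the second pair both genes had a summit in both libraries within 10 kb.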
